A study of Mus musculus with 36 samples.

Results

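MicroRNAs (miRNAs) were counted in the ventral and lateral prostate of male Elac2 knockout mice (KO; ELAC2-/-) at 30 weeks of age and compared with knockout mice at 10 weeks. The comparison used 6 of the 36 small RNA libraries in the series, 3 at 30 weeks (libraries 22, 23 and 24) and 3 at 10 weeks (libraries 31, 32 and 33). Members were chosen by group alone: these 6 libraries, and the 504 miRNAs of 1963 listed whose mean over them was at least 1 RPM (reads per 1000000 miRNA reads of the library). A further 789 miRNAs had a read in at least 1 of the 6 libraries and were not tested. The knockout mice carried Pb-Cre, a Cre recombinase driven by the probasin promoter, so the deletion is aimed at prostate epithelium and other cells of the lobes keep Elac2. All 6 libraries are from mice without TRAMP, the transgene that places SV40 T antigens under the same promoter. Age-matched wild-type mice (WT; ELAC2+/+) and mice homozygous in the whole body for the A537T variant were sampled at both ages, with 3 libraries in each of these 4 groups. All mice were of the strain labelled C56NL/6N, and each library is taken as 1 mouse. Elac2 mRNA and prostate-defining mRNAs were not measured in these files, so neither the deletion nor the dissected lobe could be checked in them.

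A miRNA is cut from a hairpin precursor, and bases 2 to 8 of the mature strand, the seed, pair with target transcripts. The 5p and 3p strands are the arms of 1 hairpin. ELAC2 is the RNase Z that removes the 3′ trailers of precursor tRNAs. The imprinted Dlk1-Dio3 domain holds one of the biggest miRNA clusters of the mouse genome, expressed from the maternal chromosome together with the non-coding RNAs Meg3, Rian and Mirg. Its miRNAs are abundant in the embryo, brain and endocrine cells. miR-7, miR-9, miR-124 and miR-129 are known from neurons and neuroendocrine cells, and the miR-200 family and the miR-183 cluster from epithelium.

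The sequences that carry the comparison are shown with the seed in capitals (RefSeq, GRCm38.p6; 433 of the 504 tested miRNAs had an entry). The first 5 are abundant miRNAs of the Dlk1-Dio3 cluster that were lower at 30 weeks, and each has a different seed.
miR-127-3p: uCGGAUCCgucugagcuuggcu
miR-379-5p: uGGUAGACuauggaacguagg
miR-381-3p: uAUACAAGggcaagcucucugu
miR-434-5p: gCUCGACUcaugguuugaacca
miR-541-5p: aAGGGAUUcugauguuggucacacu

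The next 4 are miRNAs of neurons and neuroendocrine cells, of which miR-7b-5p had the largest change of all 504, and miR-7a-5p shares its seed.
miR-7b-5p: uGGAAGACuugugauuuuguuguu
miR-7a-5p: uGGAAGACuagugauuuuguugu
miR-9-5p: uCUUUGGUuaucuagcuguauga
miR-129-5p: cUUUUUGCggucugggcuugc

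Next come miR-218-5p and miR-451a, which were lower at 30 weeks and lie outside both groups.
miR-218-5p: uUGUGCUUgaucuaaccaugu
miR-451a: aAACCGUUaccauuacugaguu

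The last 6 were the miRNAs with a mean of at least 100 RPM that passed the limma test below as higher at 30 weeks. Of these, miR-340-3p reached that mean only through library 23. miR-200b-3p shares its seed with miR-200c-3p and miR-429-3p.
miR-340-5p: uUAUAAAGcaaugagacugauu
miR-340-3p: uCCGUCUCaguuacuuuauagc
miR-200b-3p: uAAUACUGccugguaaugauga
miR-21a-5p: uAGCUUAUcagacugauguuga
miR-183-5p: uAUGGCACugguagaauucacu
miR-142a-5p: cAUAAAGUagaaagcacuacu

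The 6 knockout libraries held 12422946 to 18574473 reads on miRNAs and 906 to 975 detected miRNAs each, and the 10 most abundant miRNAs took 65.5% to 69.6% of a library. The 10-week libraries resembled each other (Spearman correlation across miRNAs 0.98 to 0.99). At 30 weeks, libraries 22 and 24 did so too (0.99), whereas library 23 stood apart, with 0.94 and 0.96 to the others of its age and 0.90 to each 10-week library. These correlations are across miRNAs, which are not independent replicates. Library 23 was kept, and the results below are also given without it. Levels are given in RPM, and changes are differences of log2(RPM + 1) at 30 minus 10 weeks, a scale that understates the change of low miRNAs.

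In knockout prostate more miRNAs fell with age than rose, many of them in the Dlk1-Dio3 cluster. Of the 504 tested miRNAs, 127 passed the limma test at an adjusted p under 0.05 (25.2%), of which 9 rose (1.79%) and 118 fell (23.4%), and 89 of the 127 changed by more than 2-fold. At an unadjusted p under 0.05 there were 219. All 3 libraries at 30 weeks lay below all 3 at 10 weeks for 209 miRNAs (41.5%) and above them for 58 (11.5%). Members of the Dlk1-Dio3 cluster made up 52 of the 118 falls, and the other 66 were spread over the remaining miRNAs. Without library 23 all 127 miRNAs were again called, among 192, with 29 rises. The count was 83 without library 31, and rises numbered 17 without library 22, 6 without library 24, 1 without library 31, 3 without library 32 and 2 without library 33.

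The split of rises and falls depended on the scaling. The median change of all 504 miRNAs was -0.29 when each library was divided by its total. It was -0.06 with TMM scaling, which gave 43 rises and 88 falls, and -0.05 in edgeR, which gave 45 and 86. DESeq2 gave a median of 0.05 with 84 rises and 92 falls. With each library centred on its median miRNA there were 109 rises and 70 falls at a median of 0.26. Changes of single miRNAs are therefore to be read against -0.29. No miRNA called in the reported comparison changed sign under any alternative that tested it, except 2 of the 127 when centred on the median miRNA, and 28 were called in all 16 alternatives.

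**Figure D1:**
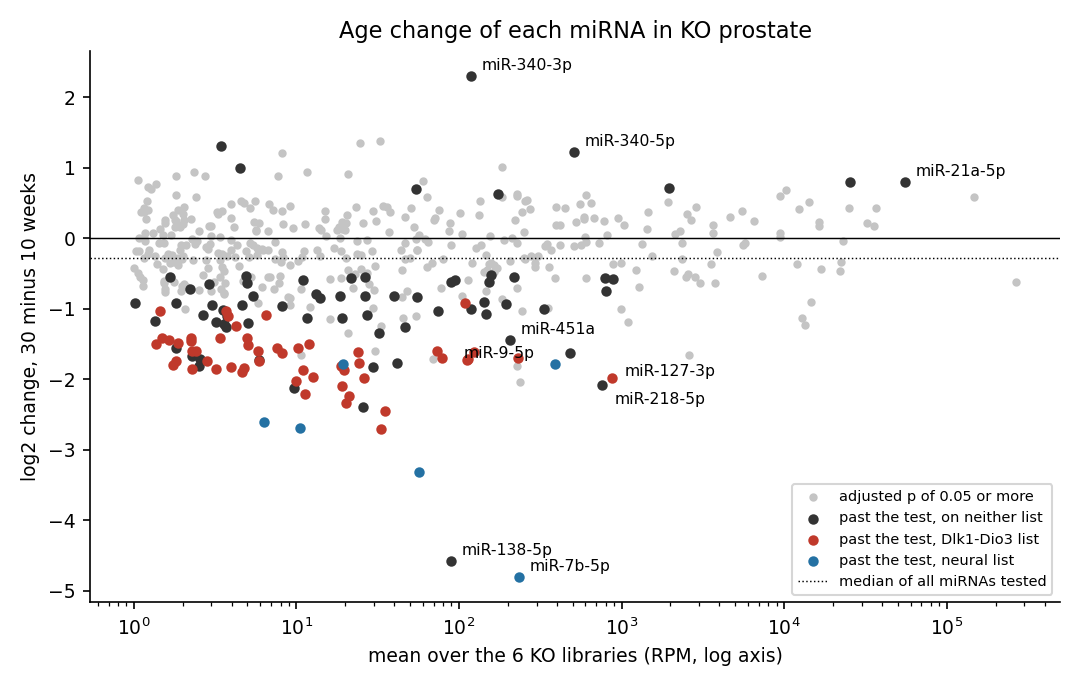
Change with age of each of the 504 tested miRNAs in knockout prostate (vertical axis, log2 difference of 30 minus 10 weeks) against its mean level (horizontal axis, RPM, log scale). Each point is 1 miRNA, coloured grey where it missed the limma test and otherwise red (Dlk1-Dio3 list), blue (neural list) or black, with the dotted line at the median of -0.29; 118 called points lie below 0 and 9 above, and miR-7b-5p is the lowest at -4.81.

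The tested members of the Dlk1-Dio3 cluster fell nearly as a whole. Of its 103 listed mature miRNAs, 10 had no read in knockout prostate and 57 were tested. Of these 57, 52 fell, none rose and 5 did not pass, beside 118 falls (23.4%) among all 504. The floor of 1 RPM is a mean over both ages, so low members could pass it through their 10-week libraries alone. An example is miR-539-5p, with means of 3.27 RPM at 10 weeks and 0.206 at 30 weeks. The 30-week libraries lay below the 10-week libraries for 55 of the 57 and overlapped for 2, where 41.5% of all 504 lay below. The median change was -1.62, with a range of -2.71 to -0.31, against -0.29 over all 504 miRNAs. All 23 members with a mean of at least 10 RPM fell. Some, such as miR-410-3p (17.8 RPM at 10 weeks against 4.14 at 30 weeks), reached that mean through 10 weeks. The 5 that did not pass were also lower, at -0.92 for miR-411-3p (limma, adjusted p = 0.0871), -0.76 for miR-668-3p, -0.69 for miR-379-3p, -0.59 for miR-1193-3p and -0.31 for miR-543-3p.

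miR-127-3p, an antisense regulator of the retrotransposon-derived gene Rtl1, was the most abundant member. It stood at 1266, 1630 and 1293 RPM at 10 weeks and at 313, 424 and 324 at 30 weeks (libraries in numerical order here and throughout). The ages did not overlap, and its level was 3.94-fold lower at 30 weeks (log2 change -1.98, SE 0.18; limma, adjusted p = 0.000543). Its hairpin lies at chr12:109592846-109592915 on the plus strand (GRCm38), opposite an exon of Rtl1. miR-379-5p, the first hairpin of the distal group (chr12:109709060-109709125, between annotated genes), had 362, 420 and 285 RPM at 10 weeks and 107, 121 and 96.1 at 30 weeks. It was 3.28-fold lower (log2 change -1.69, SE 0.19; limma, adjusted p = 0.000704), again with no overlap.

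miR-381-3p (chr12:109726822-109726896, between genes) had 182, 188 and 149 RPM at 10 weeks and 53.2, 48.7 and 52 at 30 weeks. The 3 libraries at 30 weeks, library 23 included, were close to each other and far below every 10-week library (3.37-fold; log2 change -1.73, SE 0.15; limma, adjusted p = 0.000542). miR-541-5p (chr12:109742409-109742498, intron of Mirg) went from 154, 192 and 175 to 45.8, 64.6 and 47.7 (log2 change -1.71, SE 0.19). miR-434-5p (chr12:109594506-109594599, opposite an exon of Rtl1) went from 180, 201 and 183 to 53.2, 74.6 and 55.4 (log2 change -1.62, SE 0.17). Neither miRNA overlapped between the ages, and both passed the limma test (adjusted p = 0.00067 and 0.000667). These 5 miRNAs passed under all 16 alternatives, with the highest adjusted p between 0.00819 and 0.0161. The largest change in the cluster was that of miR-136-3p (chr12:109595327-109595388, opposite Rtl1), whose mean went from 58.3 ± 11.4 to 8.39 ± 3.24 RPM (SD, n = 3; log2 change -2.71, SE 0.31; limma, adjusted p = 0.000721).

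Members that fell lay along the whole cluster. RefSeq entries placed 53 of the 57 tested members on 39 hairpins of the plus strand, over 180.104 kb from chr12:109563692-109743795 (GRCm38). Both arms were tested for 14 hairpins, and both were called lower for 12 of them. The member in an exon of Meg3, miR-770-3p, fell, as did all 9 opposite Rtl1 (median -1.63), both in introns of Rian and 12 of 13 within Mirg (median -1.71). Summed over the list, the cluster gave 3128, 3866 and 3115 RPM at 10 weeks and 857, 1099 and 868 at 30 weeks. All 3 sums at 30 weeks lay below all 3 at 10 weeks, by 3.58-fold in the means. Across the alternatives that tested the same 57 miRNAs, 41 (one fit of all 18 libraries without TRAMP) to 53 members were called lower and none higher. Without library 23, 58 of 58 were called lower, and without another library 47 to 50.

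**Figure D2:**
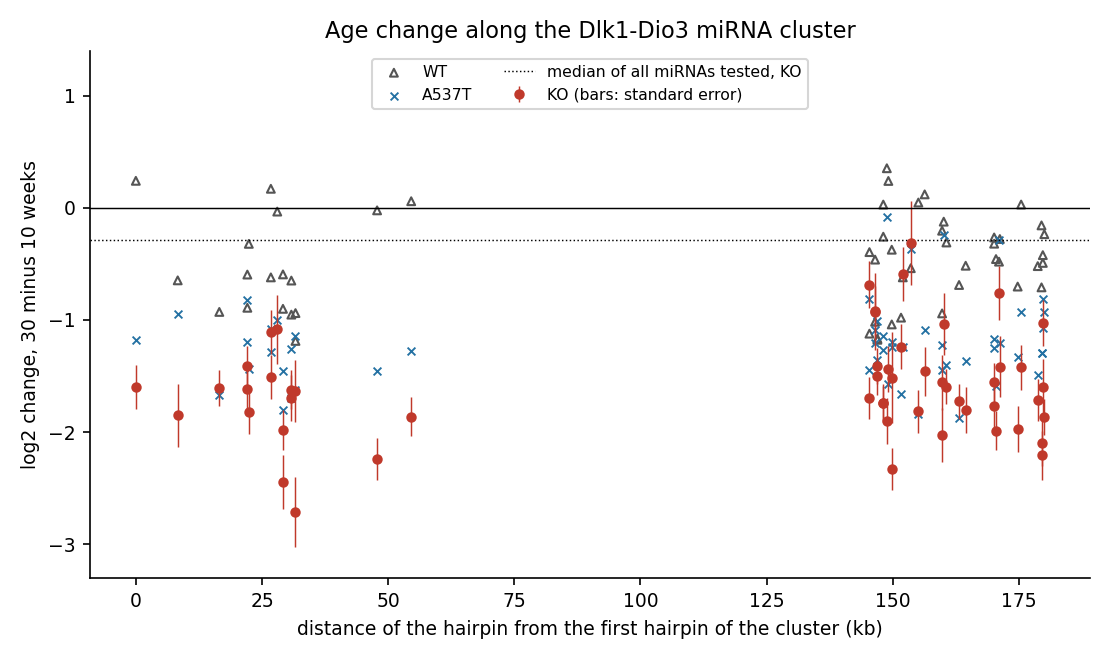
Change with age of the placed Dlk1-Dio3 miRNAs in knockout prostate (red circles; vertical axis, log2 difference of 30 minus 10 weeks, bars are 1 SE), with the changes in WT (triangles) and A537T (crosses), against the distance of their hairpin from the first hairpin of the cluster (horizontal axis, kb). Each of the 53 red circles is 1 mature miRNA; all lie below 0, from -2.71 to -0.31, both in the group near Rtl1 and in the distal group from miR-379 onward.

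The miRNAs known from neurons and neuroendocrine cells had a median change of -2.20, below that of the Dlk1-Dio3 list. The list has 12 members, of which 8 were tested, 6 fell and none rose, where 118 of all 504 fell (23.4%). The median of the same 8 was 0.47 in WT and -0.78 in A537T, beside 0.13 and -0.06 over all 504. miR-375-3p, also known from neuroendocrine cells, was placed in the epithelial list, and its ages overlapped in KO. miR-7b-5p, from a hairpin between genes at chr17:56242988-56243098 (plus strand), had 375, 531 and 449 RPM at 10 weeks and 17.1, 9.81 and 19.8 at 30 weeks. Every 10-week library was far above every 30-week library, and the means differed 29.0-fold (log2 change -4.81, SE 0.27; limma, adjusted p = 0.000203). It passed under all 16 alternatives, with changes between -5.00 and -4.18.

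miR-7a-5p is 23 bases long and miR-7b-5p 24, and the 2 differ within their shared length by A10U, counted from 1 at the 5′ end with the base of miR-7a first. Their seeds are identical. miR-7a-5p had 3232, 4077 and 2869 RPM at 10 weeks and 2280, 2220 and 2383 at 30 weeks. The ages did not overlap, but the change was 1.48-fold and did not pass the limma test (log2 change -0.55, SE 0.17; adjusted p = 0.0515). Mature miR-7a comes from hairpins in an intron of Hnrnpk (chr13:58392779-58392886, minus strand) and between genes (chr7:78888277-78888373, plus strand), which its reads cannot tell apart. How reads too short or too variable to separate miR-7a from miR-7b were assigned is not given in the sources used here, so the split between them is uncertain.

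miR-9-5p, which acts in neural progenitors and has 3 hairpins (on chromosomes 3, 7 and 13), went from 564, 633 and 602 RPM to 221, 123 and 189. The ages were well apart (log2 change -1.79, SE 0.23; limma, adjusted p = 0.00116), although the test was lost in the fit of all 18 libraries (adjusted p = 0.0942). miR-129-5p, from hairpins on chromosomes 2 and 6, went from 80.4, 117 and 112 to 11.2, 6.79 and 10.7 RPM, a 10.8-fold difference without overlap (log2 change -3.31, SE 0.24; limma, adjusted p = 0.000542). miR-124-3p, a marker of differentiated neurons, was low at both ages, with 9.1, 12.4 and 12.8 against 1.76, 0.274 and 1.32 RPM (log2 change -2.61, SE 0.31; limma, adjusted p = 0.000901). The fit of all 18 libraries left 2 of the 6 called. miR-7a-1-3p, at 0.45 the sole member that was higher, did not pass (limma, adjusted p = 0.174), and 1 member was called higher in DESeq2 and after centring. The summed level of the list was 4323, 5439 and 4124 RPM at 10 weeks and 2564, 2403 and 2643 at 30 weeks, most of it miR-7a-5p. In bulk tissue, fewer cells of a type and less RNA per cell cannot be told apart, for this list and for those that follow.

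Outside these lists, miR-218-5p, which is encoded in introns of the axon guidance genes Slit2 (chr5:48223942-48224051) and Slit3 (chr11:35616816-35616925), had 1146, 1279 and 1158 RPM at 10 weeks and 475, 114 and 406 at 30 weeks. Library 23 was the lowest of the 6, and the ages did not overlap (log2 change -2.09, SE 0.50; limma, adjusted p = 0.0229). The call was lost without library 31, 32 or 33 (adjusted p 0.0788 to 0.0803) and in the fit of 18 libraries (0.106). miR-199b-5p, a miRNA of fibroblasts and smooth muscle, went from 709, 772 and 640 to 344, 118 and 292 RPM. Library 23 was again the lowest, and the change of -1.62 (SE 0.38; limma, adjusted p = 0.0209) was likewise lost without library 31, 32 or 33 (0.0631 to 0.0803).

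miR-451a, a miRNA of red cells whose hairpin (chr11:78073170-78073241, plus strand) is processed without Dicer, went from 223, 328 and 361 to 104, 109 and 113 RPM. The 30-week libraries were close to each other and below all of the 10-week libraries (2.80-fold; log2 change -1.45, SE 0.20; limma, adjusted p = 0.00181), and the call was made under all 16 alternatives. miR-34a-5p, a direct target of p53 (chr4:150068454-150068555, between genes), went from 402, 475 and 448 to 250, 173 and 240 RPM, with a log2 change of -1.01 (SE 0.18; limma, adjusted p = 0.00578). miR-34c-5p fell with it, from a mean of 99.5 ± 7.05 to 48.8 ± 10.5 (SD, n = 3; log2 change -1.03, SE 0.19; limma, adjusted p = 0.00702). Of the 6 tested miRNAs of the p53-linked list 3 fell and none rose, beside 118 falls (23.4%) among all 504. In the fit of 18 libraries none of the 6 was called.

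**Figure D3:**
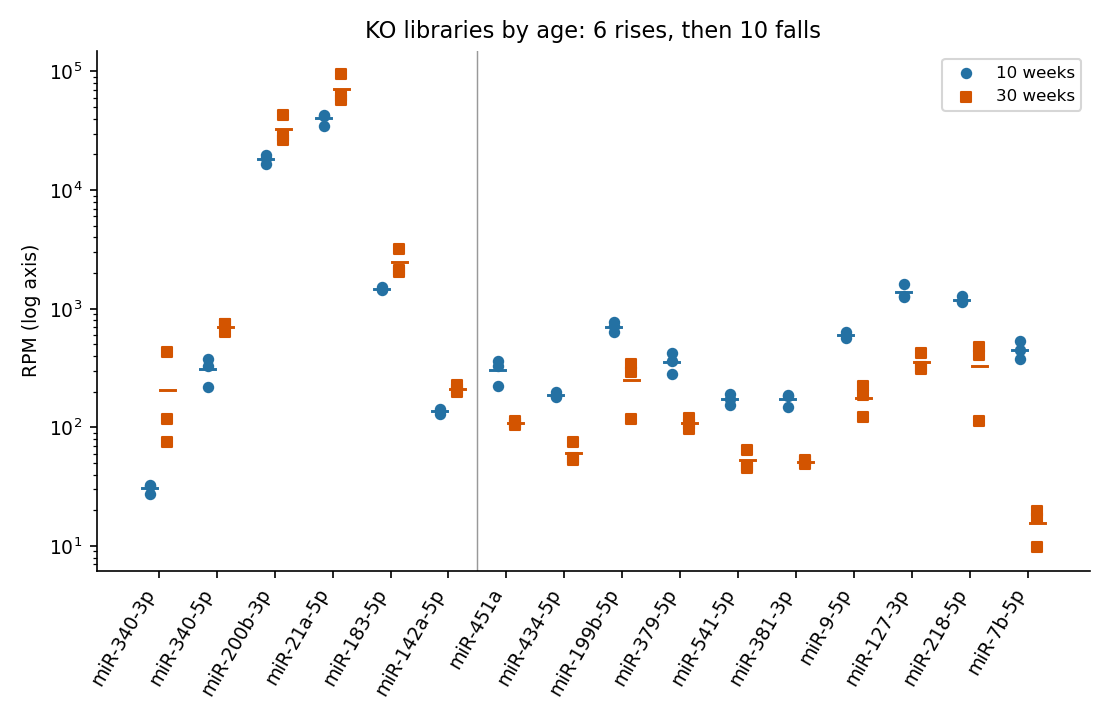
RPM (log scale) of the named miRNAs in each knockout library, with 10 weeks and 30 weeks in different colours and a short line at each group mean. Each point is 1 library; the 3 libraries at 30 weeks lie above the 3 at 10 weeks for the 6 rises and below them for the 10 falls, with miR-7b-5p showing the widest gap.

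Among the 157 miRNAs with a mean of at least 100 RPM, 22 fell and 6 rose, and both arms of the hairpin of miR-340, in an intron of the ubiquitin ligase gene Rnf130 (chr11:50069702-50069799, plus strand), were among the rises. miR-340-5p had 378, 331 and 220 RPM at 10 weeks and 643, 743 and 742 at 30 weeks, without overlap. It was 2.29-fold higher (log2 change 1.23, SE 0.22; limma, adjusted p = 0.00561) and the sole rise called under all 16 alternatives. miR-340-3p had 32.3, 32.9 and 27.7 at 10 weeks and 75.1, 429 and 118 at 30 weeks, with library 23 far above the others. Its mean reached 100 RPM only through library 23. Its change of 2.30 (SE 0.58; limma, adjusted p = 0.0269) was lost without library 31, 32 or 33 (0.0803 to 0.0954).

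The other 4 rises were smaller and depended more on the libraries. miR-200b-3p, which represses the ZEB factors of epithelial-mesenchymal transition (chr4:156055681-156055750, minus strand, introns of Ttll10 and Gm13648), had 19672, 18694 and 16497 RPM at 10 weeks and 26314, 43289 and 28341 at 30 weeks. miR-21a-5p, a widely expressed miRNA raised in many tumours (chr11:86584067-86584158, minus strand, exon of Vmp1), had 43381, 42538 and 34896 at 10 weeks and 57125, 94552 and 62118 at 30 weeks. miR-183-5p, of an epithelial and sensory cluster (chr6:30169668-30169737, minus strand), went from 1449, 1466 and 1512 to 2059, 3181 and 2131. In all 3, library 23 was the highest and the ages did not overlap, and the changes were 0.80, 0.79 and 0.71 (SE 0.22, 0.23 and 0.19; limma, adjusted p = 0.0387, 0.0462 and 0.0375). Each of these calls was lost without library 24, 31, 32 or 33, with adjusted p between 0.0628 and 0.143, and was kept without library 22 or 23. They passed under 10, 9 and 10 of 16 alternatives.

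miR-142a-5p, a miRNA of leukocytes (chr11:87756864-87756927, plus strand, intron of Mir142hg), had 131, 137 and 144 RPM at 10 weeks and 199.7, 212 and 226 at 30 weeks. Both ages were tight and apart (log2 change 0.63, SE 0.13; limma, adjusted p = 0.0133), but the call was lost without library 24, 31 or 32 (0.0514 to 0.0774) and in the fit of 18 libraries (0.0984). The remaining 3 rises were of low miRNAs, namely miR-155-5p, a miRNA of activated leukocytes (mean 41.4 ± 6.00 to 68.0 ± 7.91 RPM, SD, n = 3; log2 change 0.70), miR-181a-2-3p (0.99) and miR-3963 (1.31).

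Of the 10 most abundant miRNAs, 8 did not pass the test. miR-143-3p, a miRNA of smooth muscle and the most abundant of all, had 333948, 279904 and 327612 RPM at 10 weeks and 278714, 118143 and 256047 at 30 weeks, all lower than at 10 weeks but widely spread (log2 change -0.62, SE 0.34; limma, adjusted p = 0.203). miR-148a-3p, the second in level, had 122426, 112420 and 113668 against 147457, 222367 and 162205, a change of 0.59 (SE 0.21; limma, adjusted p = 0.0727) that passed under TMM, edgeR, DESeq2 and median centring and without library 23. let-7f-5p, let-7c-5p, miR-26a-5p and miR-99a-5p had changes between 0.18 and 0.43 that did not pass, and let-7g-5p had -0.04 (95% interval -0.37 to 0.29). Together with miR-200b-3p, miR-21a-5p and miR-10a-5p, these were the 10 miRNAs of highest mean.

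The study's text names 6 miRNAs, all from comparisons of mutant with control mice and not of ages. It names miR-669c-5p and miR-676-5p for knockout mice with TRAMP, which are not in these libraries. The others were chosen with libraries used here in view, so these counts are not independent evidence. Of the 6, 3 fell with age in knockout prostate, where 118 of all 504 miRNAs fell (23.4%). miR-338-3p, from an intron of the neuronal kinase gene Aatk (chr11:120014765-120014862, minus strand), went from 38.2, 42.2 and 50.2 to 7.51, 5.69 and 9.46 RPM (log2 change -2.40, SE 0.22; limma, adjusted p = 0.000543). miR-383-5p, which passed the floor of 1 RPM through its 10-week libraries alone, went from a mean of 3.19 ± 0.199 to 0.434 ± 0.198 (SD, n = 3; log2 change -1.56; limma, adjusted p = 0.00067). Both were lost only in the fit of all 18 libraries, with adjusted p = 0.0649 and 0.0864. miR-669c-5p, of the Sfmbt2 intron cluster, went from 26.1 ± 1.70 to 12.2 ± 5.11 (log2 change -1.13, SE 0.32; limma, adjusted p = 0.0429) and passed under 7 of 16 alternatives, its call being lost without library 24, 31, 32 or 33 (0.0536 to 0.132). miR-10a-5p, from the Hoxb cluster (chr11:96317165-96317274), had 24625, 19660 and 27102 RPM at 10 weeks and 29834, 8886 and 24458 at 30 weeks. Its ages overlapped, with library 23 the lowest, and it did not pass (log2 change -0.34, 95% interval -1.38 to 0.70). miR-676-5p (-0.24, interval -0.70 to 0.22) and miR-122-5p (0.03, -0.80 to 0.86), which was near 3 RPM, did not pass either.

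The other lists held fewer calls, to be read beside 9 rises (1.79%) and 118 falls (23.4%) among all 504. Of 19 tested epithelial miRNAs 2 rose and none fell, with a median of 0.27 in KO, 0.59 in WT and 0.40 in A537T. In KO, 10 of the 19 lay above without overlap, as did 11.5% of all 504 miRNAs. The list summed to 65368, 63574 and 63147 RPM at 10 weeks and 79517, 105407 and 80829 at 30 weeks in KO. Library 23 was thus the highest and the ages were apart. The number of rises in this list was 9 with TMM or edgeR, 11 with DESeq2 and 12 with centring. It was 6 without library 23, 3 without library 22 and 0 without library 24, 31, 32 or 33, and 0 in the fit of 18 libraries and with no filter on low values. In the leukocyte list (12 tested) 2 rose and none fell (median 0.08), and 0 to 2 rose when a library was left out (0 without library 31, 1 without library 22, 24, 32 or 33). Its rises numbered 3 with TMM or edgeR, 5 with DESeq2, 6 with centring and 0 in the fit of 18 libraries, and 1 member fell without library 22 and 2 without library 23. In the smooth muscle and fibroblast list (18 tested) 1 rose and 2 fell (median -0.42), and none of 6 endothelial miRNAs passed (median 0.22). Scaling changed both lists. With TMM or edgeR, 3 endothelial miRNAs rose, and 4 rose with DESeq2 or centring. The smooth muscle and fibroblast list had 3 rises and 1 fall with TMM or edgeR, 4 and 1 with DESeq2, and 6 and 1 with centring. The smooth muscle and fibroblast counts were 2 rises and 6 falls without library 23, 4 falls without library 22, 0 rises and 1 fall without library 24, and 0 of both without library 31, 32 or 33.

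Red cell miRNAs fell in 3 of 6 (median -1.19), and all 6 lay below without overlap (41.5% of all 504 did). Without library 23, 5 of the 6 were called. miR-486ab-5p, the most abundant of them, had a change of -1.19 that did not pass (limma, adjusted p = 0.171). The X-linked miR-322 cluster fell in 4 of 9 (median -0.55), a count that was 0 with TMM, edgeR, DESeq2 and centring and in the fit of 18 libraries. Among families, none of 11 miR-30 miRNAs passed (median 0.09), let-7 fell in 3 of 21 (-0.04), the miR-17 family in 2 of 19 (-0.07), the miR-10 and miR-196 miRNAs of the Hox clusters in 1 of 9 (-0.56, miR-196a-5p) and the Sfmbt2 cluster in 1 of 16 (-0.66), and none of these 5 groups had a rise when libraries were divided by their totals. Other scalings gave rises. With TMM, edgeR, DESeq2 and centring in that order, 2, 3, 4 and 5 miR-30 miRNAs rose, 1, 1, 5 and 4 of let-7, and 2, 2, 4 and 5 of the miR-17 family. At most 1 member of let-7 or of the miR-17 family then fell, and the medians of both were above 0. The fall in the Sfmbt2 cluster was lost under these 4 scalings, with 1 rise after centring, and the Hox fall was lost after centring. The fit of 18 libraries left 1 fall in let-7, 0 in the Sfmbt2 and Hox groups, and 2 falls with 1 rise in the miR-17 family. In the miR-181 family 1 of 7 rose (miR-181a-2-3p; median -0.11), a call lost without library 31 or 33 and in the fit of 18 libraries. Centring gave 2 rises there, and its median was above 0 under these 4 scalings. The other counts moved with single libraries too. Without library 31, 32 or 33, falls numbered 0 to 1 in each of the let-7, miR-17, Sfmbt2 and miR-322 lists, and without library 24 they were 1 in let-7, in the miR-17 family and in the miR-322 cluster. Without library 22, 5 Sfmbt2 miRNAs fell, and 4 of the miR-17 family fell and 4 rose. Without library 23, 2 of the miR-17 family and 1 miR-30 miRNA rose, and 2 Sfmbt2 and 2 Hox miRNAs fell. For comparison, 9 of all 504 rose and 118 fell (median -0.29).

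**Figure D4:**
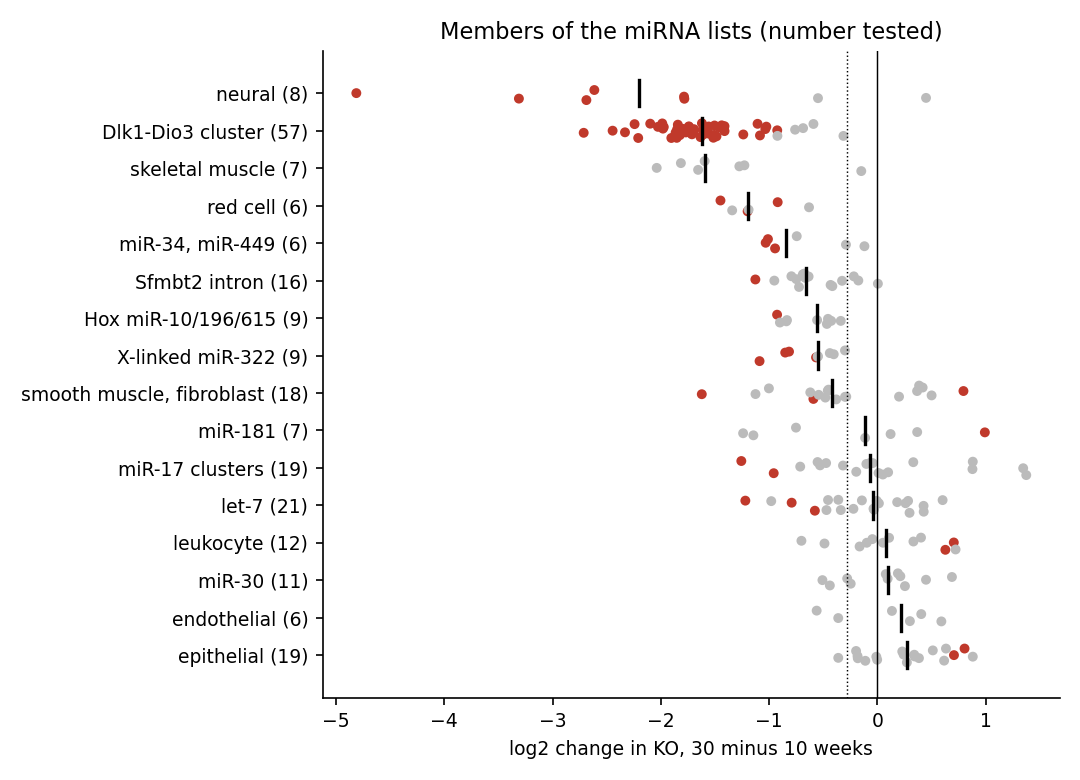
Change with age in knockout prostate (horizontal axis, log2 difference of 30 minus 10 weeks) of every tested member of each list (rows). Each point is 1 miRNA, coloured by whether it passed the limma test, a bar marks each list's median and the dotted line the median of all 504; the Dlk1-Dio3 (-1.62) and neural (-2.20) medians lie well left of that line (-0.29).

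The level of skeletal muscle miRNAs varied between the libraries. The list summed to 7734, 65070 and 7358 RPM at 10 weeks, with library 32 far above the others, and to 5019, 8209 and 6018 at 30 weeks. All 7 tested members were lower at 30 weeks (median -1.60), and none passed. Of these members, 4 lay below without overlap, as did 41.5% of all 504 miRNAs. Without library 32 the median was -0.34 and 1 member was called lower, and DESeq2 called 2 lower. Removing this list from the library totals gave 131 calls (8 rises and 123 falls), and 84 of the 125 calls still tested were made without library 32. Its part in the other changes was otherwise not tested.

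Whether these changes differed from ageing in the other lines was tested as the age change of KO minus that of WT, over 12 libraries. None of 504 miRNAs passed in limma (0%; smallest adjusted p = 0.285; 68 at an unadjusted p under 0.05), edgeR called 0 and DESeq2 29. Against A537T none of 511 passed (0%; smallest adjusted p = 0.117; 74 at an unadjusted p under 0.05), edgeR called 0 and DESeq2 4. Both tests share the KO libraries. The miRNA with the smallest p against WT was miR-181a-2-3p, which had 2.53, 3.54 and 2.03 RPM at 10 weeks and 5.75, 8.09 and 5.22 at 30 weeks in KO, and 12.6, 26 and 70 and then 7.51, 4.88 and 5.28 in WT. It was higher with age in KO and lower in WT without overlap in either, a difference of 3.12 (95% interval 1.61 to 4.63) that did not pass in limma (adjusted p = 0.285), but passed in DESeq2 (0.000232), without WT library 19 (0.0252) and without WT library 28 (0.0207).

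Against A537T the smallest p was that of miR-375-3p, a miRNA of neuroendocrine and secretory epithelial cells. It had 4012, 3248 and 4329 RPM at 10 weeks and 4339, 1709 and 3582 at 30 weeks in KO, where the ages overlapped. In A537T it had 1105, 949 and 325 at 10 weeks and 4826, 3281 and 4687 at 30 weeks, well apart. The difference of -2.95 (interval -4.26 to -1.64) did not pass in limma (adjusted p = 0.117), but passed in DESeq2 (0.0038), without A537T library 26 (0.0326) and without KO library 32 (0.0394). A537T library 35 held 655455 reads, far fewer than any other library without TRAMP.

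The WT libraries spread so widely that the comparison of KO with WT rests on single libraries. WT library 19 stood apart from libraries 20 and 21 of its age. Its Dlk1-Dio3 sum was 962 RPM, near the knockout values at 30 weeks, against 3899 and 3143 in the other 2. At 10 weeks the WT sums were 4991, 2803 and 3485. The ages thus overlapped in WT and not in KO, and the ratio of the 10-week to the 30-week mean was 1.41 in WT (1.07 without library 19), 3.58 in KO and 2.77 in A537T, where the sums fell from 3761, 4337 and 5082 to 1600, 1423 and 1740. Skeletal muscle miRNAs took 9.74%, 19.1% and 30.7% of WT reads at 10 weeks and 0.389% to 0.449% at 30 weeks. In KO at 10 weeks they took 0.773%, 6.51% and 0.736%. A larger muscle share lowers the RPM of all other miRNAs, and so lowers the WT ratio. The ratios are given without adjustment for this. The median change of the 57 members was -0.48 in WT (48 lower) and -1.25 in A537T (57 lower), beside 0.13 and -0.06 over all 504 miRNAs.

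miR-127-3p followed the same order, with 1909, 1076 and 1420 RPM at 10 weeks in WT and 404, 1596 and 1313 at 30 weeks, and with 1509, 1669 and 1958 and then 600.4, 573 and 697 in A537T. The difference of its age change between KO and WT was -1.39 (interval -2.73 to -0.04; limma, adjusted p = 0.338) and between KO and A537T -0.53 (-1.09 to 0.04; 0.387). miR-7b-5p had 627, 113 and 80.8 RPM at 10 weeks in WT and 18.7, 636 and 418 at 30 weeks, so both WT ages held high and low libraries. In A537T it had 207, 362 and 491 and then 135, 31.5 and 173, with no overlap. Its age change in KO was lower than in WT by 4.76 on the log2 scale (interval -8.27 to -1.24; limma, adjusted p = 0.313) and lower than in A537T by 2.95 (-4.55 to -1.35; 0.117). miR-340-5p was higher at 30 weeks without overlap in all 3 lines, with changes of 1.23 in KO, 1.5 in WT and 1.23 in A537T. miR-340-3p and miR-183-5p were also higher without overlap in all 3 lines. miR-200b-3p and miR-21a-5p were so in KO and WT and overlapped in A537T, whereas miR-142a-5p was so in KO and A537T and overlapped in WT.

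Without WT library 19, limma called 63 of 509 tested miRNAs for a difference between the KO and WT age changes, 58 of them lower (11.4%) and 5 higher (0.982%) in KO. With library 19, none of 504 passed (limma, smallest adjusted p = 0.285). Library 19 was singled out for its low Dlk1-Dio3 sum at 30 weeks, so leaving it out by itself lowers KO minus WT for that list. All counts and adjusted p-values without it are therefore a description and not a test. The lower ones included 35 of 60 tested Dlk1-Dio3 miRNAs and 7 of 8 neural ones, with miR-7b-5p at -6.33 (limma, adjusted p = 0.0105) and miR-127-3p at -2.0 (0.0182), and 4 of 8 skeletal muscle miRNAs were among the higher. The number called was 8 without KO library 32 and 1 without WT library 28. Against A537T it was 7 without A537T library 26 or without KO library 32. The labels do not set library 19 apart from the other WT libraries.

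**Figure D5:**
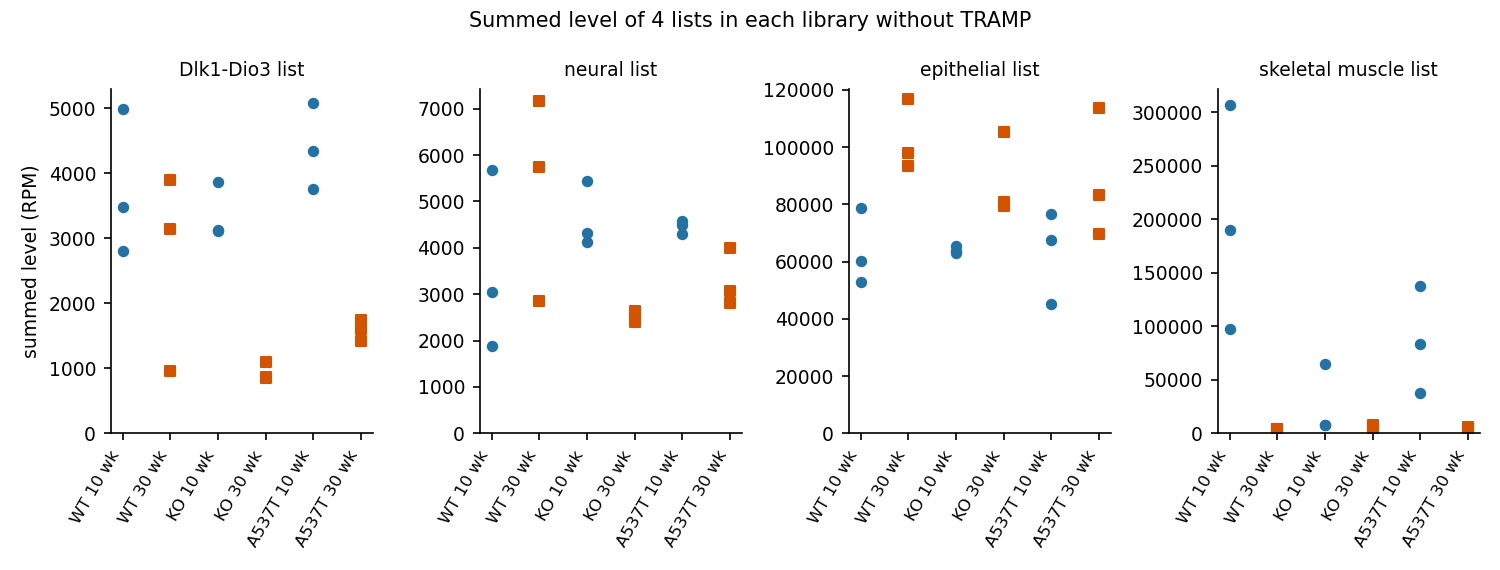
Summed level of the Dlk1-Dio3, neural, epithelial and skeletal muscle lists in each library without TRAMP (vertical axis, RPM, linear from 0), by line and age. Each point is 1 library, blue circles for 10 weeks and orange squares for 30 weeks; for the Dlk1-Dio3 list the 30-week knockout and A537T libraries lie below those at 10 weeks, whereas in WT only library 19, at 962 RPM, lies below them.

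The muscle share of the lines differed as well. The skeletal muscle list summed to 97353 to 306689 RPM in WT at 10 weeks and to 3886 to 4491 at 30 weeks, a ratio of 47.0, and to 37234 to 137283 and 3560 to 5457 in A537T (18), against a ratio of 4.17 in KO. The KO ratio rests on library 32 and was 1.18 without it. miR-1a-3p, the most abundant of the list, had an age change 4.27 higher in KO than in WT (interval 1.99 to 6.55; limma, adjusted p = 0.285). Both comparisons between lines were also fitted with this list left out of the library totals. Neither miR-181a-2-3p against WT nor miR-375-3p against A537T passed in limma there. The part of muscle in the differences between lines was not tested further.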

How the data were processed

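Small RNA libraries of mouse prostate (Illumina TruSeq kit, NovaSeq) were merged and trimmed by the authors with BBMerge and counted with mirDeep2 on GRCm38 and miRBase, duplicate and identical miRNA sequences being summed. The authors deposited normalised counts, a signal of reads divided by DESeq2 size factors, in separate tables of 6 libraries. Their fold changes and s-values were deposited too and were not used. Libraries were grouped by the table that held them, columns shared by the knockout and mutant tables being WT. Whole reads were recovered for 100% of values (tolerance 0.0001), which gave the depths.

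Each column was divided by its sum and multiplied by 1000000 (RPM). miRNAs with a mean of at least 1 RPM were tested with limma 3.58.1 (variance trend, two-sided, Benjamini-Hochberg threshold 0.05) on log2(RPM + 1). Interactions were fitted over 12 libraries. Alternatives used edgeR 4.0.16 and DESeq2 1.42.0 (R 4.3.3) on recovered reads, and scripts were tested on simulated data. The text names the up to 10 largest rises and falls past the test with a mean of at least 100 RPM and no overlap, the 10 most abundant miRNAs, 6 from the study, the smallest p of each interaction and up to 4 members of a list. miR-136-3p, miR-124-3p, miR-7a-1-3p, miR-155-5p, miR-3963, the Dlk1-Dio3 members that missed the test and miRNAs compared between lines were named after their values were seen. Members and lists were chosen with earlier results of these data known. Counting error alone does not cover differences between mice. The study gives 3 mice per group, and where libraries do not stand for separate mice, p-values measure only the spread between libraries.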

Additional observations from a re-analysis of the deposited data

How the results depend on the processing

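The number of miRNAs called for knockout prostate, 127, was 71 (6 higher and 65 lower) with a mean of at least 10 RPM, since fewer were tested, and 62 (5 higher and 57 lower) in the fit of all 18 libraries. The number of rises, 9, was 43 with TMM, 45 in edgeR, 84 in DESeq2 and 109 with libraries centred on the median miRNA, which was chosen after seeing the data and gave 179 calls with 70 falls. Leaving out 1 library gave 83 to 192 calls, 1 to 29 higher and 82 to 163 lower. Interaction calls, 0 in the reported tests, were 29 against WT and 4 against A537T in DESeq2, and 0 to 63 and 0 to 7 without 1 library. Changes that had not passed reversed for let-7g-5p (TMM 0.24, edgeR 0.24, DESeq2 0.34, centred 0.51, -0.067 to 0.0040 without 1 library), miR-10a-5p (edgeR 0.0758, DESeq2 0.16, centred 0.21, -0.68 to 0.20 without 1 library), miR-676-5p (TMM 0.0227, edgeR 0.0517, DESeq2 0.16, centred 0.30), miR-375-3p (DESeq2 0.0742, centred 0.18, -0.63 to 0.0397 without 1 library) and miR-122-5p (-0.20 to 0.45 without 1 library). The cause of the changes beyond fewer tests or libraries was not tested. No paired analysis was possible because the columns carry no replicate numbers. With 3 libraries per age, the smallest change called was 0.53 on the log2 scale.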

Other observations

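Several further miRNAs known from the nervous system were lower at 30 weeks in knockout prostate. They lie outside the lists and were picked for their falls after their values were seen. Such miRNAs that did not fall were not counted, and 118 of all 504 miRNAs fell (23.4%). miR-138-5p, which is enriched in brain and has hairpins on chromosomes 8 and 9, had 142, 218 and 153 RPM at 10 weeks and 10.8, 1.92 and 9.25 at 30 weeks. The ages were far apart (23.3-fold; log2 change -4.58, SE 0.52; limma, adjusted p = 0.000721), and the call was made under all 16 alternatives. In WT its 10-week libraries had 264, 33.7 and 13.9 and its 30-week libraries 4.34, 249 and 142 RPM, so that WT library 19 was again the lowest of its age.

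miR-137-3p, a regulator of neuronal maturation (chr3:118433857-118433929), went from 13.9, 15.1 and 17.8 to 6.63, 0.274 and 4.59 RPM in knockout prostate (log2 change -2.12, SE 0.62; limma, adjusted p = 0.0451). miR-344-3p went from 3.93, 4.91 and 4.46 to 0.27, 0.96 and 0.835 (-1.71, SE 0.21; adjusted p = 0.00109), and miR-384-5p from 2.85, 4.51 and 4.6 to 0.947, 0.343 and 0.417 (-1.67, SE 0.23; adjusted p = 0.00176). Both were under 1 RPM in every 30-week library, so they passed the floor of 1 RPM through their 10-week libraries alone. miR-338-5p, the other arm of the miR-338 hairpin, went from 61.8, 64.4 and 66.5 to 21.8, 11.9 and 22.7 (-1.77, SE 0.25; adjusted p = 0.00195). None of these 4 overlapped between the ages in KO, and library 23 was the lowest of the 6 for all but miR-344-3p. In WT all 4 overlapped between the ages, as in miR-137-3p with 25.2, 4.07 and 1.99 RPM at 10 weeks and 0.763, 27 and 16.5 at 30 weeks.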
